A study of Mus musculus with 11 samples.

Results

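Otop1, Chrna2 and Kcnk3 are 3 of the 29955 gene symbols in the RNA-seq of im-scWAT cells. They encode ion channels that have been linked to beige or brown fat cells. Each was matched by its symbol on the sense strand, and the FPKM (here the mapped bases of a transcript divided by its exon length in kilobases and by the mapped megabases of the sample) of its representative transcript was read in all 11 samples. The 3 genes were chosen on their FPKM in these samples, with the day 8 ROS ratios and the transduced values already known. Their levels and ratios are therefore a description. A linear model (limma) was fitted across all genes of the transduced samples. Its intervals and p-values for the 3 genes are descriptions too, since the choice used the same values.

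The cells were mouse im-scWAT preadipocytes, a line immortalized with SV40 large T antigen from the stromal vascular cells of inguinal subcutaneous white fat. A time course of 6 samples took them from confluence at day 0 through days 4 and 8 of adipogenic differentiation, with rosiglitazone (ROS, a ligand of the nuclear receptor PPARγ) at 0.5 μM for beige cells or without ROS for white cells, 1 sample for each day and condition. The day 0 pair were preadipocytes harvested before the treatments diverged. The other 5 samples were taken at day 8 with ROS from cells in which mouse Jmjd1a (Kdm3a, an H3K9 demethylase) was targeted by an shRNA driven by a U6 promoter and human JMJD1A was returned from a retroviral LTR promoter, with selection in G418 and zeocin.

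Of these transduced samples, 2 carried wild-type human JMJD1A (WT A and WT B). The others, 1 sample each, carried S265A-hJMJD1A (the serine that is phosphorylated after β-adrenergic signaling replaced by alanine), S265D-hJMJD1A (the same serine replaced by aspartate to mimic phosphorylation) or S265D-H1120Y-hJMJD1A (the mimic with a catalytically dead demethylase domain). All 5 share the knockdown, the vectors and ROS. Nothing in the labels says whether WT A and WT B came from separate transductions, so the spread between them may be technical or biological. The transcript of the targeted gene, Kdm3a, gives no clear sign of the knockdown in these FPKM: it lay between 15.1 and 23.2 in the time course and at 20.4, 17.9, 13.0, 23.0 and 28.5 in WT A, WT B, S265A, S265D and S265D-H1120Y, and reads of the human transgene were not separated from it here. The paper itself reports, by immunoblot and qPCR, that the shRNA depleted endogenous JMJD1A. It also reports that returned human WT and S265A protein was comparable to the native level.

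OTOP1 is a proton channel, first known from the otoconia of the inner ear and from sour taste cells, and its transcript marks brown and beige fat. CHRNA2 is an alpha subunit of the nicotinic acetylcholine receptors, ligand-gated cation channels that assemble from alpha and beta subunits, and has been described as an acetylcholine sensor of beige adipocytes. KCNK3 (TASK-1) is a potassium leak channel with tandem pore domains that sets the resting membrane potential and is enriched in brown fat. Ucp1, the uncoupling protein of thermogenic fat, and Pparg, the general adipogenic regulator, are given beside them for reference.

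In the mouse build mm9 all 3 genes lie on the plus strand. Otop1 is at chr5:38668643-38695456 with 3150 bases of exon, and Kcnk3 at chr5:30890543-30927643 with 3810 bases of exon, so that 7.74 Mb separate the end of Kcnk3 from the start of Otop1. Chrna2 is at chr14:66759797-66771785 with 3527 bases of exon. In the GENCODE annotation of that build Kcnk3 has 2 exons around an intron of 33291 bases, Chrna2 has 7 exons, and Otop1 has a transcript of 7 exons and another of 8 exons whose first exon lies farther upstream. Since ROS acts through PPARγ, the 250 bases just before the annotated start of each representative transcript are shown, read from the plus strand of mm9 (for Otop1 this window lies inside the first intron of the longer transcript). Capitals mark AGGTCA, the core hexamer of the sites that nuclear receptors bind, searched on both strands.
Otop1, chr5:38668393-38668642: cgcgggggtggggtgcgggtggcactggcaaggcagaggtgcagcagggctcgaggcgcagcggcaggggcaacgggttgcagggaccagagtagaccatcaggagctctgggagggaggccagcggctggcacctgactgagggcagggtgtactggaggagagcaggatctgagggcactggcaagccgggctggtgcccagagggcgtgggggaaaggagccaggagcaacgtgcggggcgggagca
Chrna2, chr14:66759547-66759796: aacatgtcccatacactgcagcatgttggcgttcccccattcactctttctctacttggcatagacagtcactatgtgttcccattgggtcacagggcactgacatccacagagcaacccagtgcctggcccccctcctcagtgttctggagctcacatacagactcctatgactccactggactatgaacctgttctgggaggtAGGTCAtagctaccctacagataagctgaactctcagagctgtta
Kcnk3, chr5:30890293-30890542: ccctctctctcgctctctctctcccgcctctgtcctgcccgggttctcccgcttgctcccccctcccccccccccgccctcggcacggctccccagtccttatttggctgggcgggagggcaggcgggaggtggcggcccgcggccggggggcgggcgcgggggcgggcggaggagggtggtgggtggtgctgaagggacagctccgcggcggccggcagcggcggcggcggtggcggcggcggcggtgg
The Chrna2 window held 1 match, starting 45 bases before the start, and the other windows held none. AGGTCA was present in 2353 of 19913 windows of this length over all genes, or 11.8%. The repeat AGGTCANAGGTCA, the arrangement that PPARγ with RXR prefers, was in none of the 3 windows and in 10 windows overall (0.0502%). A match is a stretch of letters, not a binding site, and these RNA-seq data hold no binding measurement. The 3 windows differed in base composition: G and C made up 79.6% of the Kcnk3 window, more than in 97.8% of all windows, 70.0% of the Otop1 window and 51.2% of the Chrna2 window, against a median of 56.4%.

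The libraries held 3.10 to 5.29 Gb of mapped bases each, with a median of 4.64 Gb. At these depths 100 mapped bases on 3 kb of exon amount to an FPKM between 0.00630 and 0.0107, so that values below about that size rest on single reads. The cells expressed the adipocyte markers their labels imply. The summed FPKM of 7 adipocyte markers was 281 to 284 at day 0 and between 11390 and 35541 from day 4 on. Of the defining markers of other cell types, Ptprc and Adgre1 (macrophage), Myod1, Myog and Ckm (skeletal muscle), Elavl4 (neuron) and Sox10 (Schwann) were listed at 0 in all 11 samples, and Cdh5 (endothelial) did not exceed 0.0100. Cd68, which is not confined to macrophages, reached 21.7 and the muscle actin Acta1 19.3, and the part of such markers in the results was not tested.

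In the time course, all 3 channel genes were nearly silent in preadipocytes and were highest at day 8 with ROS, but they followed different paths. Kcnk3 came up by day 4 with or without ROS. Chrna2 came up by day 4 in both conditions and at day 8 was low without ROS and high with it. Otop1 stayed at or near 0 until day 8. At day 8 the ratio of ROS over no ROS was 7.11 for Otop1, 24.2 for Chrna2 and 2.05 for Kcnk3. The ratios of Otop1 and Chrna2 rest on 2185 and 1980 mapped bases without ROS.

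**Figure D1:**
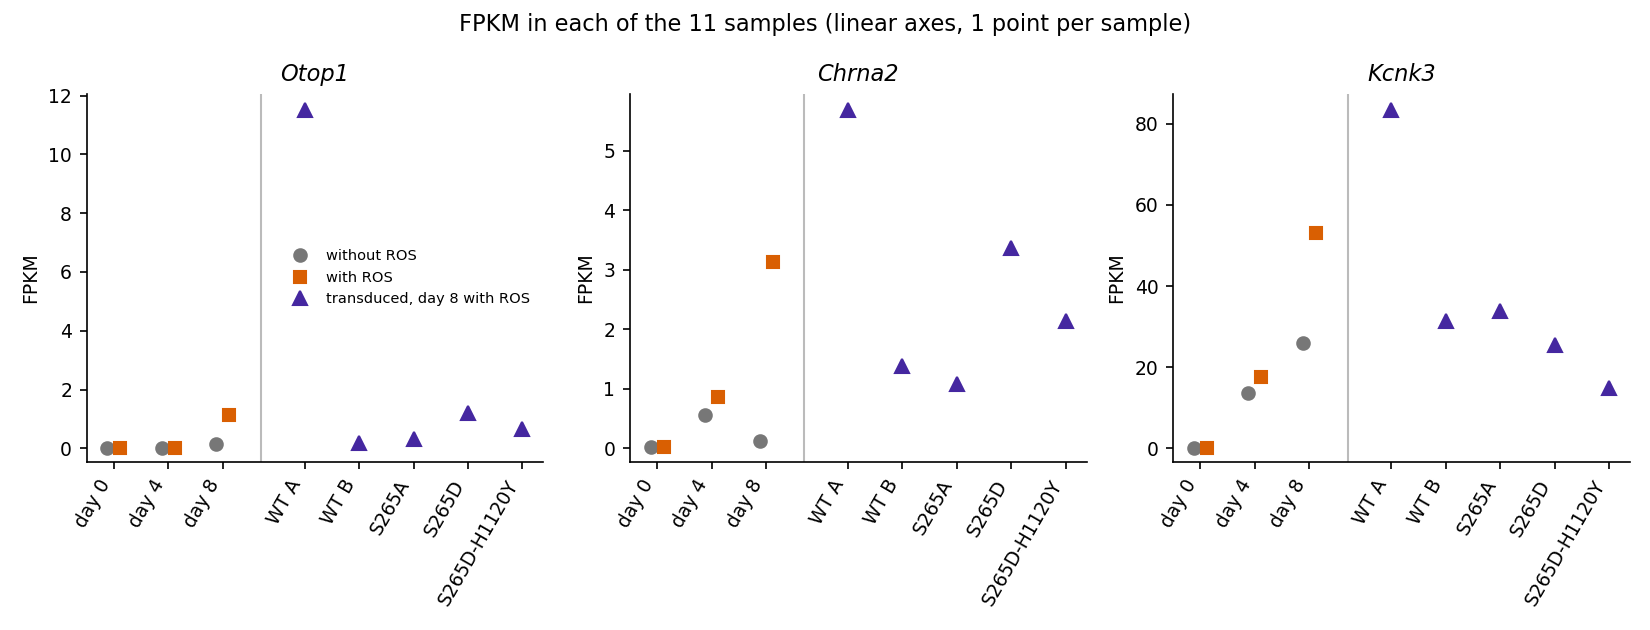
FPKM of Otop1, Chrna2 and Kcnk3 (linear y axes that differ between panels) in each of the 11 samples, with time course samples at days 0, 4 and 8 as grey circles (without ROS) and orange squares (with ROS), and transduced samples as purple triangles. Within each panel the highest point is WT A, at 11.5, 5.68 and 83.3 FPKM, and among the time course samples the day 8 sample with ROS is highest.

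Otop1 was listed at 0 FPKM in both day 0 samples and at day 4 without ROS. It stood at 0.0249 FPKM at day 4 with ROS, on 396 mapped bases. At day 8 it was 0.160 FPKM without ROS and 1.13 FPKM with ROS, on 2185 and 18150 mapped bases. The proton channel transcript was thus at the limit of detection before day 8, and its day 8 level with ROS was 45.6 times that at day 4, a ratio that rests on the few bases of the day 4 sample. No fold can be given for the cells without ROS, where the day 4 value is listed at 0.

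Chrna2 was 0.0242 and 0.0241 FPKM in the day 0 samples, on 396 mapped bases in each. Without ROS it was 0.561 FPKM at day 4 and 0.129 FPKM at day 8, on 6143 and 1980 mapped bases. With ROS it was 0.855 FPKM at day 4 and 3.12 FPKM at day 8, on 15254 and 55970 mapped bases. The day 8 value without ROS is thus a low one that rests on few bases, as do the ratios taken from it. The subunit therefore moved in opposite directions between day 4 and day 8 in the 2 conditions, to 0.230 of the day 4 level without ROS and to 3.65 times the day 4 level with ROS. At day 4 the ROS ratio was 1.52.

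Kcnk3 was 0.0616 and 0.0501 FPKM in the day 0 samples, on 1089 and 891 mapped bases. Without ROS it was 13.6 FPKM at day 4 and 25.9 FPKM at day 8. With ROS it was 17.6 FPKM at day 4 and 53.0 FPKM at day 8. The leak channel thus came up in both conditions, well above its day 0 level by day 4, when the ratio of ROS over no ROS was 1.29. From day 4 to day 8 its level went up 3.01 times with ROS and 1.90 times without. In bulk RNA a gene expressed in more cells and one expressed more strongly per cell cannot be told apart, and this holds for all values here.

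These ratios can be set beside those of the other genes of the same samples. The 3 genes were chosen with their day 8 ratios known, so their place among all genes is a description and not a test. At day 8, 622 of the 15536 genes that reached an FPKM of 0.1 in either sample were at least 2 times as high with ROS, or 4.0%, and all 3 channel genes were among them. With a pseudocount of 1 FPKM the count was 219 genes, and the log2 difference was 0.88 for Otop1, no longer past 2-fold, and 1.87 for Chrna2, in place of 2.25 and 3.81 with a pseudocount of 0.1. By the size of the ratio Chrna2 ranked 72, Otop1 118 and Kcnk3 590, so that Kcnk3 sat just past the 2-fold line. The median difference of log2(FPKM + 0.1) was 2.25 over the 3 genes and -0.21 over all genes. At day 4, 335 of 15246 genes (2.2%) were at least 2 times as high with ROS, and Chrna2 and Kcnk3 were not among them, while Otop1 was under the minimum FPKM. With ROS, 6.62% of genes were at least 2 times as high at day 8 as at day 4, all 3 channel genes included. Without ROS, 9.6% were at least 2 times as high at day 8 as at day 4, among them Otop1, and 4.29% were at most 0.5 times as high, among them Chrna2. Ucp1 went from 0.0970 FPKM without ROS to 9.90 FPKM with ROS at day 8, a ratio of 102 that rests on 693 mapped bases without ROS. Pparg was 231 FPKM without ROS and 140 FPKM with ROS. Cfd was also lower with ROS, with a ratio of 0.626. The other adipocyte markers were higher, with ratios of 4.11 for Fabp4, 3.75 for the fatty acid transporter Cd36, 1.82 for Adipoq, 1.61 for the lipid droplet protein Plin1 and 1.23 for Lpl, and the median log2 difference of the 7 markers was 0.68. The 4 preadipocyte markers were lower with ROS, with ratios of 0.229 for Cd34, 0.349 for Dlk1, 0.506 for Pdgfrb and 0.519 for Pdgfra. The part of the extent of differentiation in the channel gene ratios was not tested. Scaling each sample by its median gene multiplied the FPKM ratios of ROS at day 8 by the same factor, 0.19 on the log2 scale, and left each channel gene higher with ROS.

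**Figure D2:**
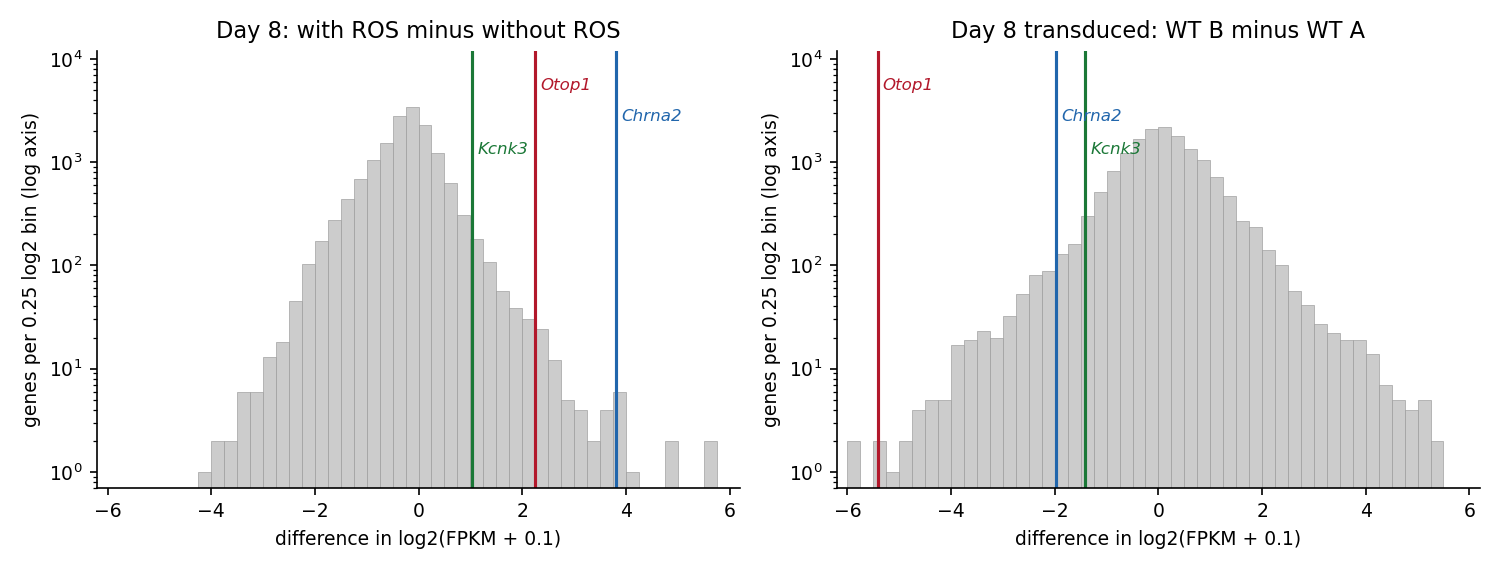
Numbers of genes (log y axis, bins of 0.25 log2) by the difference in log2(FPKM + 0.1) between day 8 with and without ROS (left) and between WT B and WT A (right), with the 3 channel genes as coloured lines. The genes lie at 2.25, 3.81 and 1.03 for Otop1, Chrna2 and Kcnk3 on the left, and at -5.42, -1.97 and -1.41 on the right.

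The transduced cells were all differentiated with ROS, and the comparisons there ask whether the channel genes depend on S265 of JMJD1A and on its demethylase activity. The 2 WT samples carry the same construct but differed strongly from each other in these genes. Otop1 was 11.5 FPKM in WT A and 0.171 FPKM in WT B, a 67.1-fold gap, with a mean of 5.83 ± 8.01 (SD, n = 2). Chrna2 was 5.68 FPKM in WT A and 1.38 FPKM in WT B, with a mean of 3.53 ± 3.04 (SD, n = 2). Kcnk3 was 83.3 FPKM in WT A and 31.3 FPKM in WT B, with a mean of 57.3 ± 36.8 (SD, n = 2). All 3 channel genes were thus at most 0.5 times as high in WT B as in WT A, as were 10.8% of 15837 genes. The same held for all 6 beige or brown markers listed (Ucp1, Cidea, Ppara, Cox8b, Elovl3 and Prdm16), and for none of the 7 adipocyte markers. Both lists were chosen with earlier results of these data known. Pparg was 89.8 FPKM in WT A and 95.6 FPKM in WT B, while Fabp4, the adipocyte fatty acid binding protein, was 12393 and 26902 FPKM. Lpl was also higher in WT B, at 406 and 849 FPKM in WT A and WT B. Lower in WT B were Adipoq (978 and 738), Plin1 (293 and 158), Cfd (680 and 389) and Cd36 (598 and 513). The median log2 difference of the 7 adipocyte markers, WT B minus WT A, was -0.22. Markers of other cells moved too, with Cd68 at 5.00 FPKM in WT A and 16.6 FPKM in WT B, and Acta1 at 1.40 and 19.3 FPKM. The endothelial marker Pecam1 was 0.965 and 2.04 FPKM. The preadipocyte marker Pdgfra was 9.33 FPKM in WT A and 35.6 FPKM in WT B, and the summed FPKM of the 4 preadipocyte markers was 25.1 and 58.0. The part of these markers in the difference between the WT samples was not tested.

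In the mutant samples Otop1 was 0.316 FPKM with S265A, 1.19 FPKM with S265D and 0.673 FPKM with S265D-H1120Y. Chrna2 was 1.08 FPKM with S265A, 3.36 FPKM with S265D and 2.13 FPKM with S265D-H1120Y. Kcnk3 was 33.8 FPKM with S265A, 25.5 FPKM with S265D and 14.9 FPKM with S265D-H1120Y. The proton channel and the receptor subunit shared an order among the mutants, with S265D highest and S265A lowest, whereas the leak channel was highest with S265A and lowest with S265D-H1120Y. For Otop1 the 3 mutants all lay between the 2 WT samples. For Chrna2 S265A lay just below WT B and the other mutants lay between the WT samples. For Kcnk3 only S265A lay between them, and both S265D samples were below WT B.

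Over the WT mean, S265A gave a ratio of 0.0541 for Otop1, 0.307 for Chrna2 and 0.591 for Kcnk3. At most 0.5 times the WT mean were Otop1 and Chrna2, along with 7.55% of 16051 genes. These ratios rested on WT A. Without WT A, that is over WT B, they were 1.84, 0.786 and 1.08, none of them past 2-fold, and without WT B, over WT A, they were 0.0275, 0.191 and 0.406. In limma across 16402 genes the log2 differences from WT were -2.09 for Otop1 (95% interval -11.1 to 6.93), -1.31 for Chrna2 (-4.78 to 2.17) and -0.59 for Kcnk3 (-3.23 to 2.05). With 1 residual degree of freedom, from the WT pair, no gene had an adjusted p below 0.05 (0.0% of genes), and 107 had an unadjusted p below it. All 3 intervals include 0.

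Over the WT mean, S265D gave a ratio of 0.203 for Otop1, 0.953 for Chrna2 and 0.446 for Kcnk3. None of the 3 was at least 2 times the WT mean, as 4.02% of 16089 genes were, and Otop1 and Kcnk3 were at most 0.5 times that mean, as 5.56% of genes were. Here the choice of WT sample turned the direction. Without WT A, over WT B, the ratios were 6.92, 2.44 and 0.816, and without WT B, over WT A, they were 0.103, 0.592 and 0.307. The paper counts Otop1 among the beige-selective genes that were not induced with S265A but were raised with S265D. Its text does not say which WT sample served as the reference. The limma log2 differences were -0.46 for Otop1 (95% interval -9.49 to 8.56), 0.24 for Chrna2 (-3.23 to 3.72) and -0.997 for Kcnk3 (-3.63 to 1.64), with no call in 16402 genes (0.0%) and 99 genes at an unadjusted p below 0.05. For Chrna2 the limma difference, which averages logs, and the ratio of means thus had opposite signs, and both were small beside the interval. Kcnk3 was lower with S265D than in either WT sample.

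**Figure D3:**
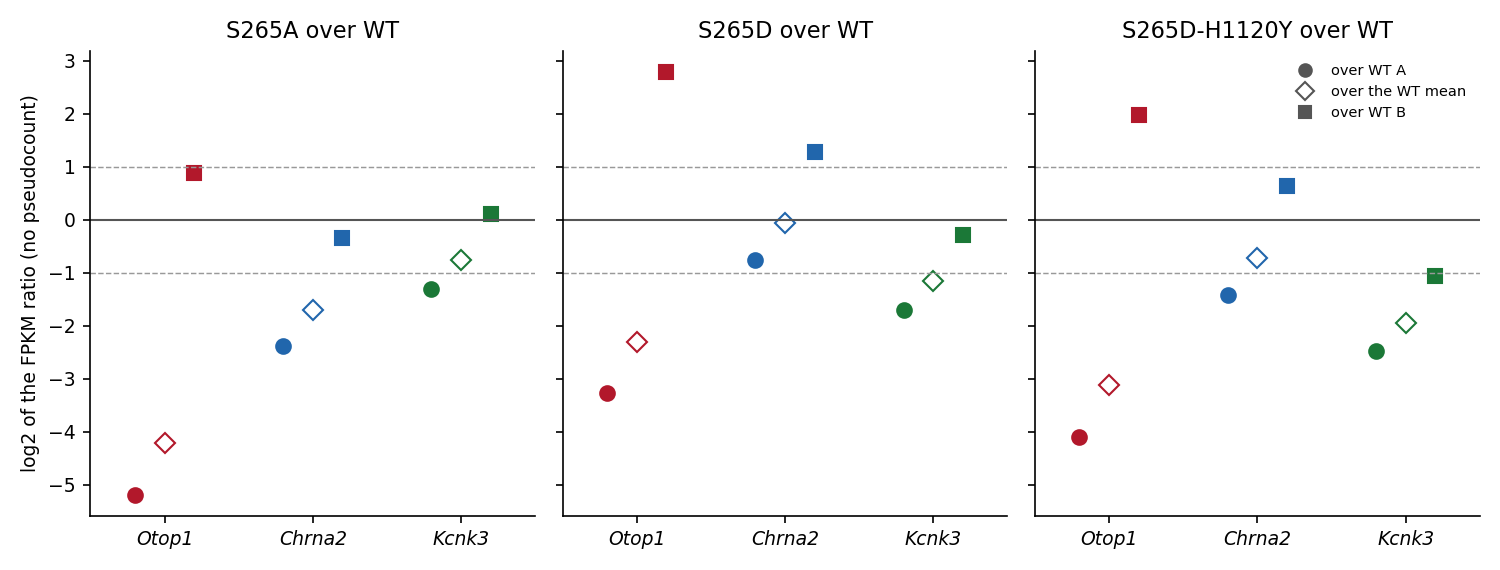
Log2 of the FPKM ratio (no pseudocount) of each mutant over WT A (circles), over the WT mean (open diamonds) and over WT B (squares) for the 3 channel genes, with dashed lines at 2-fold. Otop1 moves across the zero line in all 3 panels with the WT sample used, from a ratio of 0.103 over WT A to 6.92 over WT B for S265D, and Kcnk3 stays below it for S265D and S265D-H1120Y.

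The catalytically dead form was compared with S265D itself, which does not involve the WT pair in the ratio. Each of these forms has 1 sample, so the limma intervals below take their spread from the WT pair and not from the forms compared. S265D-H1120Y over S265D was 0.568 for Otop1, 0.634 for Chrna2 and 0.584 for Kcnk3. All 3 were thus lower with the catalytically dead form by a similar factor, and none reached 0.5, as 8.66% of 15760 genes did. The paper lists Otop1 with genes that this form reduced to a lesser extent than Ucp1 and Cidea. Ucp1 fell from 4.67 FPKM with S265D to 0.0528 FPKM with S265D-H1120Y, a ratio of 0.0113 that rests on 398 mapped bases with S265D-H1120Y. Pparg fell from 100.4 to 73.9 FPKM, a ratio of 0.737. Ucp1 had the lowest ratio of the 6 beige or brown markers, of which 3 were at most 0.5 times as high. The median log2 difference was -0.88 over those 6 markers, -0.73 over the channel genes and -0.48 over the 7 adipocyte markers, in a comparison of 1 sample with 1 sample. In limma the log2 differences were -0.73 for Otop1 (95% interval -11.1 to 9.68), -0.63 for Chrna2 (-4.65 to 3.38) and -0.77 for Kcnk3 (-3.82 to 2.27). No gene of 16402 was called (0.0%), with 187 at an unadjusted p below 0.05. Between the 2 single mutants, S265D over S265A was 3.76 for Otop1, 3.11 for Chrna2 and 0.755 for Kcnk3.

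The transduced WT cells and the untransduced day 8 cells with ROS can be set side by side, and nothing in the sources used here says whether they were cultured together. Otop1 was 1.13 FPKM in the untransduced cells, between the WT values of 0.171 and 11.5. Chrna2 was 3.12 FPKM, between 1.38 and 5.68, and Kcnk3 was 53.0 FPKM, between 31.3 and 83.3. The untransduced sample thus fell within the WT pair for each gene. Ordered over all 11 samples, 6 samples of Otop1, 5 of Chrna2 and 4 of Kcnk3 lay within the range set by the WT pair, these 2 included, and the order of samples within that range was not tested. For all 3 genes the day 0 samples, both day 4 samples and day 8 without ROS lay below it.

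Levels per kilobase differed between the genes in every sample. Kcnk3 was the most abundant throughout, and after day 0 its FPKM was 7.00 to 200.2 times that of Chrna2, the extremes being S265D-H1120Y and day 8 without ROS. Chrna2 was in turn above Otop1 in most samples, 2.75 times at day 8 with ROS and 8.04 times in WT B. In WT A the order was turned, with Chrna2 at 0.494 of Otop1, and at day 8 without ROS it was 0.809 of Otop1 at levels below 0.2 FPKM.

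Within their families Otop1 and Kcnk3 were the main or only member in differentiated cells, while Chrna2 was found beside a beta subunit, Chrnb2. The otopetrins Otop2 and Otop3 were nearly undetected: Otop3 was listed at 0 in all samples, and Otop2 reached 0.0172 FPKM in the S265D sample alone.

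Of 16 nicotinic receptor subunits, 13 stayed below 0.1 FPKM in all samples, 6 of them at 0, and only Chrna2, Chrnb1 and Chrnb2 reached 1 FPKM. Chrna2 was the only alpha subunit above 0.1 FPKM. Chrnb1, the beta subunit of the muscle receptor, was a preadipocyte transcript in these cells, at 1.90 and 1.41 FPKM at day 0 and between 0.0249 and 0.564 FPKM in the 9 differentiated samples. Chrnb2, a neuronal beta subunit that can pair with CHRNA2, was 0.0398 and 0.0394 FPKM at day 0, 0.421 and 0.564 FPKM at days 4 and 8 without ROS, and 0.309 and 0.793 FPKM with ROS. In the transduced samples Chrnb2 was 0.979 FPKM in WT A, 1.24 in WT B, 1.94 with S265A, 1.68 with S265D and 2.33 with S265D-H1120Y. Among the transduced samples the beta subunit was thus lowest in WT A, where Chrna2 was highest. At day 8 its ROS ratio was 1.41 against 24.2 for Chrna2, and the ratio of Chrna2 to Chrnb2 was 0.229 without ROS and 3.94 with ROS. That ratio was 5.80 in WT A, 1.11 in WT B, 0.559 with S265A, 2.00 with S265D and 0.914 with S265D-H1120Y. The 2 subunits were therefore not held at a fixed ratio of transcripts. Of the 3 subunits expressed at day 8, 1 was past 2-fold up with ROS (Chrna2), as 4.0% of all genes were. Past 2-fold down was 1 (Chrnb1, ratio 0.306), and the share of all genes past that line was not counted.

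**Figure D4:**
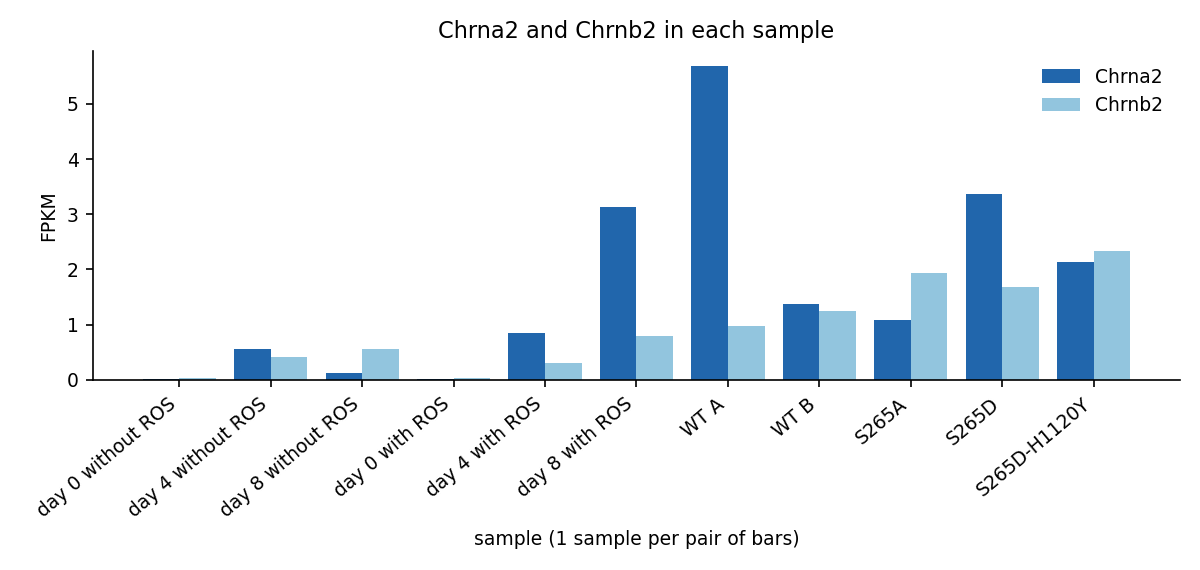
FPKM (linear axis from 0) of the nicotinic receptor subunits Chrna2 (dark bars) and Chrnb2 (light bars) in each of the 11 samples, 1 sample per pair of bars. Chrna2 exceeds Chrnb2 most in WT A (5.68 against 0.979 FPKM) and at day 8 with ROS (3.12 against 0.793 FPKM), and is below it in both day 0 samples, at day 8 without ROS, with S265A and with S265D-H1120Y.

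The enzymes and carriers that supply or remove acetylcholine were mostly silent in these cultures. Chat, which makes acetylcholine, and Slc18a3, its vesicular transporter, were listed at 0 in all 11 samples, and Ache, the main breakdown enzyme, and Slc5a7, the choline transporter, did not exceed 0.0550 and 0.0625 FPKM. Bche, butyrylcholinesterase, was the only 1 of the 5 genes to reach 1 FPKM, with 2.36 FPKM in the S265A sample and 1.59 FPKM in the S265D sample. In the other samples it was at most 0.374 FPKM, in WT B. At the depth of these libraries, transcripts of the synthesis gene were not detectable.

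Of 14 tandem pore domain potassium channels, 10 stayed below 0.1 FPKM in all samples, 4 of them at 0. Kcnk3 and Kcnk5 reached 1 FPKM. Kcnk5, the TASK-2 channel, was 1.43 and 1.25 FPKM at day 0, 0.361 to 0.502 FPKM in the later time course samples and 1.33, 0.770, 0.340, 1.68 and 3.67 FPKM in WT A, WT B, S265A, S265D and S265D-H1120Y. Its order among the 3 mutants was the reverse of that of Kcnk3. Kcnk3 made up 2.54% and 2.37% of the summed FPKM of the family at day 0 and 97.0% to 98.9% of it in the later time course samples. In the transduced samples the share was 92.9% to 98.3% except with S265D-H1120Y, where it was 79.8%.

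**Figure D5:**
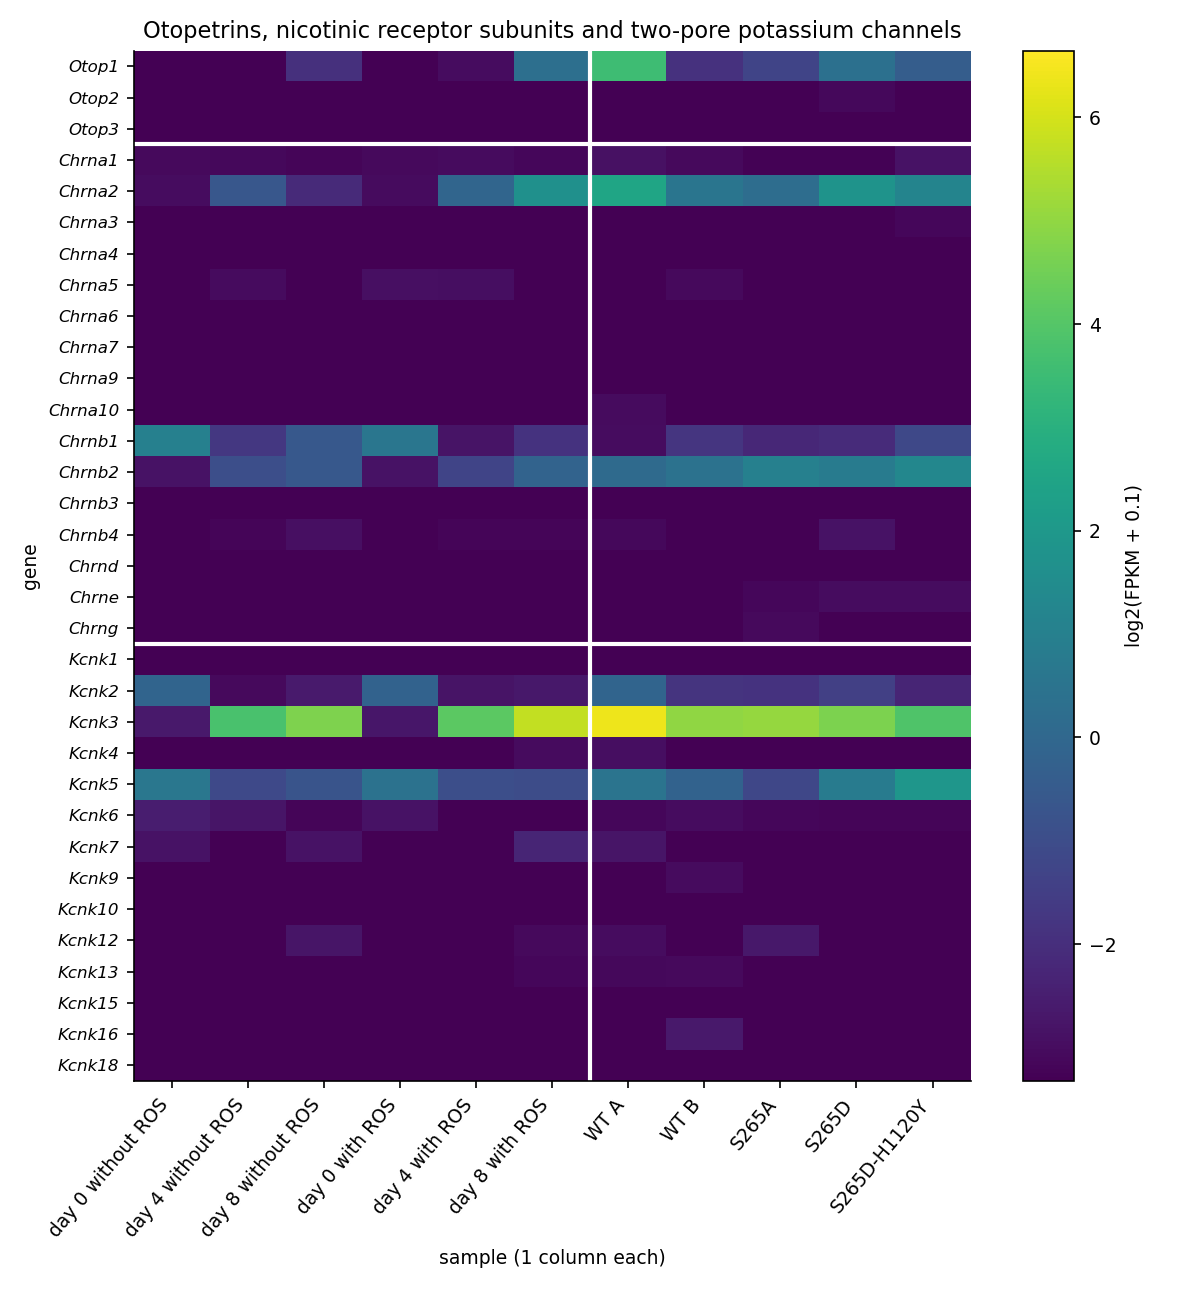
Log2(FPKM + 0.1), as colour from dark (not detected) to yellow, of the otopetrins, the nicotinic receptor subunits and the tandem pore domain potassium channels, 1 gene per row and 1 of the 11 samples per column. Kcnk3 is the brightest row, Chrna2 the only bright alpha subunit and Otop1 the only otopetrin, and Chrnb1 and Kcnk5 are bright at day 0.

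Of 18 other channel genes described in fat cells, 12 were expressed in the day 8 time course samples. Of these, 2 were at least 2 times as high with ROS, as 4.0% of all genes were. At most 0.5 times as high was 1 of them, and the share of all genes past that line was not counted. Their median log2 difference was -0.0044, against -0.21 over all genes. The genes past 2-fold up were Trpv2 (ratio 2.29) and Trpv3 (2.14), heat-sensitive cation channels that reached at most 8.33 and 0.838 FPKM in any sample, and Trpv4, another member of that family, was past 2-fold down (0.247). Piezo1, the mechanosensitive channel (listed as Fam38a), was the most abundant, between 17.0 and 39.3 FPKM, with a ROS ratio of 1.46. Trpm7, Trpc1, Lrrc8a, Clcn3, Orai1 and Stim1 reached 6.94 to 22.7 FPKM with ROS ratios between 0.770 and 1.22. Trpv1, the capsaicin receptor, Kcnma1 and Cacna1c reached at most 1.12, 1.53 and 1.08 FPKM.

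The genes whose pattern was most like each channel gene were found by Pearson's r of log2(FPKM + 0.1) over the 11 samples, among 13615 genes that reached 1 FPKM. These r values are descriptions, since the samples share libraries and fall into preadipocytes and differentiated cells. For Otop1 they included Ilvbl (r = 0.968), Txnrd2 (0.956), the separately listed symbol TXNRD2 (0.955) and Grb7 (0.951). All 4 were highest in WT A, with Grb7, an adaptor protein, at 4.75 FPKM there and 0.216 FPKM in WT B. For Chrna2 they included Urb1 (0.968), Tmem82 (0.959), BC032181 (0.956) and Ivns1abp (0.954). Tmem82 went from 0.939 FPKM without ROS to 5.95 FPKM with ROS at day 8. For Kcnk3 they were Steap4 (0.994), Aatk (0.992), Bscl2 (0.992), Adora1 (0.990) and Hsd11b1 (0.989), among them the lipid droplet protein seipin (Bscl2), the adenosine A1 receptor (Adora1) and the cortisone reductase Hsd11b1. Over the 9 differentiated samples alone, without the day 0 pair, the r of the genes named were 0.940 to 0.969 for the Otop1 list, 0.895 to 0.928 for the Chrna2 list and 0.800 to 0.946 for the Kcnk3 list.

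The 3 channel genes were not on each other's lists. Over the 11 samples r was 0.816 between Otop1 and Chrna2, 0.624 between Otop1 and Kcnk3 and 0.818 between Chrna2 and Kcnk3. With Ucp1 r was 0.860, 0.779 and 0.610 for Otop1, Chrna2 and Kcnk3. With the adipocyte gene Adipoq it was 0.469, 0.753 and 0.975 in the same order, so that the leak channel had the pattern nearest to that of adiponectin. Without the day 0 pair the value of Kcnk3 with Adipoq was 0.416 and with Ucp1 0.880, and its likeness to Adipoq rested on the step from preadipocytes to adipocytes.

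The nearest annotated neighbours of the 3 genes are given for context, a set looked up after the values were seen. Ephx2, which encodes soluble epoxide hydrolase and lies 16.5 kb before Chrna2 on the opposite strand, was 15.8 FPKM without ROS and 99.0 FPKM with ROS at day 8, a ratio of 6.27. Ptk2b, which ends 0.308 kb past Chrna2 on the opposite strand, had a ratio of 1.81. Tmem128 before Otop1 had a ratio of 0.846, Drd5 past Otop1 was listed at 0 in all samples, and Cib4 and 4930471M23Rik beside Kcnk3 had ratios of 0.853 and 0.761.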

How the data were processed

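RNA was measured in 11 samples of im-scWAT cells, each sequenced once. TruSeq reads were placed by the authors on UCSC transcripts and on the mm9 genome with Burrows-Wheeler aligner, followed by local realignment. The authors deposited FPKM per transcript and strand, and beside it the coverage signal as mapped bases, which cannot stand in for read counts. The deposited FPKM were used unscaled, 1 representative sense transcript standing for each symbol. The sources differ on whether ROS was removed before day 8, and samples were grouped by ROS alone.

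The 3 genes and all gene lists were chosen with earlier results of these data known. Ratios were called at 2-fold among genes reaching 0.1 FPKM, with no test where a condition had 1 sample. For the transduced samples, limma 3.58.1 in R 4.3.3 was fitted to log2(FPKM + 0.1) over all genes, with p-values adjusted by Benjamini-Hochberg. The fit was first tried on simulated data whose spread was far below that of the WT pair in these genes. That trial does not show how the fit performs here. Named beside the 3 genes are Ucp1, Pparg, family members reaching 1 FPKM and the 5 genes most like each in pattern, of which some are not reported here. Trpv3, Otop2, Otop3 and the silent acetylcholine genes were named after their values were seen. Alternatives changed the pseudocount, minimum, transcript, scaling, WT sample and samples fitted. Sequences and positions came from the mm9 (NCBIM37) genome and its GENCODE annotation.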

Additional observations from a re-analysis of the deposited data

Results flagged for a closer look

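Chrna2 moved in opposite directions between day 4 and day 8 in the 2 time courses, by a log2(FPKM + 0.1) difference of 1.75 with ROS and -1.53 without ROS. Each time course has 1 sample a day, so the difference between them was not tested. The day 8 value without ROS was 0.129 FPKM, on 1980 mapped bases.

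Signal was also listed on the strand opposite to each gene, its highest FPKM above that of the day 0 samples. Over Otop1 it was found in WT A alone, on 594 bases. The highest antisense value at day 8 was 0.0509 FPKM over Otop1 (WT A), 0.0370 FPKM over Chrna2 (S265D) and 0.993 FPKM over Kcnk3 (S265D). Antisense bases were 0.812% to 3.74% of all bases over Kcnk3 in the 9 differentiated samples, beside 1.52% to 2.28% over all genes in the 11 samples. In the day 0 samples without and with ROS they were 8.33% and 18.2% over Kcnk3, on 99 and 198 antisense bases. Over Chrna2 the share was highest at day 4 without ROS, 6.06% on 396 antisense bases. The part of imperfect strand marking in these values was not tested.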

How the results depend on the processing

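The ROS ratios kept their direction under every alternative run. With a pseudocount of 1 in place of 0.1 the log2 difference at day 8 was 0.880 for Otop1, no longer past 2-fold, and 1.87 for Chrna2, and at day 4 it was 0.0354 for Otop1 and 0.249 for Chrna2. With median scaling it was 2.38, 3.95 and 1.22 for Otop1, Chrna2 and Kcnk3 at day 8, and 0.312 and 0.580 for Otop1 and Chrna2 at day 4. The transcript with the highest mean FPKM was the representative one for all 3 genes. The numbers of genes past 2-fold depended on low values. With a minimum of 1 FPKM, no minimum and a pseudocount of 1, in that order, they were 314, 1332 and 219 for ROS at day 8, 48, 1395 and 11 for ROS at day 4, 439, 2504 and 149 for S265A, 193, 1580 and 87 for S265D, and 634, 2493 and 318 for S265D-H1120Y. Leaving out 1 WT sample moved the transduced differences most. Without WT A and without WT B, the log2 difference of S265A from WT was 0.62 and -4.80 for Otop1, -0.32 and -2.29 for Chrna2, and 0.11 and -1.30 for Kcnk3, and that of S265D was 2.24 and -3.17 for Otop1, 1.23 and -0.74 for Chrna2, and -0.29 and -1.70 for Kcnk3. The differences of S265D-H1120Y from S265D kept their sign, between -0.77 and -0.39 over the 3 genes, under the alternatives run for them. Without WT A and without WT B, the number of genes at most 0.5 times WT with S265A was 1248 and 1304, and that of genes at least 2 times WT with S265D 830 and 2066. The lone WT sample was there assumed to vary like the day 0 pair. limma called 0 genes in each contrast under all 8 settings, with 55 to 5681 genes at an unadjusted p below 0.05, and the adjusted p of the 3 genes in limma ranged from 0.0816 to 1. The cause of these changes was not tested. No paired analysis was run, since only WT has samples A and B and the labels do not say which WT sample goes with which mutant.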
